A study of Mus musculus with 2 samples.

Results

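The Rab GTPase genes comprised every gene in the deposited matrices whose symbol is Rab, a number and at most one letter and one digit more, a rule that uses the name and no measured value. It took 59 genes of 32285, all 59 of them protein coding in the mouse annotation. The study made 2 single-cell RNA libraries of immune cells from the gingiva of C57BL/6 mice in experimental periodontitis, 1 from mice labelled Otud1-/- and 1 from wild-type (WT) mice. OTUD1 is a deubiquitinase, and the title of the series ties it to protein transport in neutrophils. The number of animals behind each library, their age and sex, the state of their gums and the deleted stretch of Otud1 are not stated in the labels.

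Rab GTPases are small membrane switches. In the GTP-bound form each one marks a particular membrane and recruits the effectors that move, tether and fuse vesicles, and it is released again after GTP hydrolysis. Exchange factors load a Rab with GTP, GTPase-activating proteins (GAPs) turn it off, and a chaperone, GDI, carries the inactive prenylated protein through the cytosol. Neutrophils store antimicrobial proteins in several kinds of granule, and RAB27A, the marker named for this gene family, is known for the docking and release of such secretory granules. Genes of this family were therefore read as levels in each cell type, with neutrophils set against other lineages.

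The library labelled Otud1-/- had 8109 cell barcodes with 44083735 unique molecular identifiers (UMIs, 1 per captured transcript) (median 3716 per barcode). WT gave 13267 barcodes with 44878537 UMIs (median 2241). Otud1 itself had 1456 UMIs, or 33.0 CPM (UMIs scaled to the same total in every sum), in the library labelled Otud1-/-, against 834 UMIs or 18.6 CPM in WT. In neutrophils it had 33 UMIs (10.1 CPM) in the library labelled Otud1-/- and 25 UMIs (12.3 CPM) in WT. The label is thus not borne out by the 3′ tags, and tags outside a deleted part would not show a deletion. That cannot be told apart from an exchange of the 2 labels, which would turn every direction between the libraries. Directions below therefore belong to the library labelled Otud1-/-, and WT stands for the library labelled WT. Of the barcodes, 37 occurred in both libraries. After filters and doublet removal 6486 cells remained of the library labelled Otud1-/- and 11414 of WT, and clusters of both libraries together were named from marker genes, so each class name means a likeness to that cell type. The neutrophil-like class held 876 cells with 3257708 UMIs in the library labelled Otud1-/- and 963 cells with 2037291 UMIs in WT. All 15 neutrophil markers, from S100a8 to Mmp8, were over 2-fold above the other cells in both libraries. The lowest ratios were 19.3 in the library labelled Otud1-/- and 15.7 in WT. These same markers named the clusters, so the ratios describe the class and do not test its name. With 1 library per genotype there is no replicate and no test. Intervals in parentheses after a level or ratio are exact 95% intervals that cover counting error only, and p-values are not given.

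Positions of the members on which the results turn are those of the GRCm38 (mm10) gene annotation. Rab27a lies at chr9:73044854-73097629 on the plus strand, Rab8b at chr9:66843664-66919687 on the minus strand, Rab7 at chr6:87999106-88045270 on the minus strand and Rab20 at chr8:11453518-11478710 on the minus strand. Rab32 lies at chr10:10545002-10558265 on the minus strand, Rab31 at chr17:65651729-65772752 on the minus strand and Rab44 at chr17:29114145-29148980 on the plus strand. Of the 59 genes, 17 overlap another annotated gene on their own strand, Rab7, Rab20, Rab27a and Rab31 among them, so some of their tags could have been assigned otherwise. Promoter windows of 250 bases before to 50 bases after a start were taken from RefSeq on GRCm38.p6, where 48 of the Rab genes had an entry and 60 starts in all. The windows of Rab20, Rab32 and Rab31 are shown as 3 of the genes high in neutrophils of both libraries, and the upstream window of Rab27a because it is the granule Rab of the family. All are written 5′ to 3′ on the strand of the gene, and capitals mark each match to GAGGAAG, or to its complement, the PU.1-type motif searched.
Rab20, chr8:11478591-11478890, minus strand: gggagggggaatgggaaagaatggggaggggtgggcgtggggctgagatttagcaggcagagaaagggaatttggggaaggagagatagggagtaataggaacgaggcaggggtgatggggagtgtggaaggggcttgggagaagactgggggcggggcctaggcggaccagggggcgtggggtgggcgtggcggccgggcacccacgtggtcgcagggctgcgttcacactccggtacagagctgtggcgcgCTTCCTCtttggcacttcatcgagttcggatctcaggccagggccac
Rab32, chr10:10558158-10558457, minus strand: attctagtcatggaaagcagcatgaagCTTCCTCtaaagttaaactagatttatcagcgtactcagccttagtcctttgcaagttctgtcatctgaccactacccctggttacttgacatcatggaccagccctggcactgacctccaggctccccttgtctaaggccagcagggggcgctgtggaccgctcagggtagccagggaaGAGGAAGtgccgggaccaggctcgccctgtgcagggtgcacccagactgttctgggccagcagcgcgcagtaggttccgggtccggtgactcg
Rab31, chr17:65772703-65773002, minus strand: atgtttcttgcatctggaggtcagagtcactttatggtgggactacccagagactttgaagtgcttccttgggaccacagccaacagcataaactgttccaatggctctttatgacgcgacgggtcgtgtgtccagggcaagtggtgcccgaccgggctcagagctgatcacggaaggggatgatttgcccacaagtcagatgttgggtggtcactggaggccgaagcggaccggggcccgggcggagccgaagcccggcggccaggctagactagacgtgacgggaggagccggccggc
Rab27a, chr9:73044560-73044859, plus strand: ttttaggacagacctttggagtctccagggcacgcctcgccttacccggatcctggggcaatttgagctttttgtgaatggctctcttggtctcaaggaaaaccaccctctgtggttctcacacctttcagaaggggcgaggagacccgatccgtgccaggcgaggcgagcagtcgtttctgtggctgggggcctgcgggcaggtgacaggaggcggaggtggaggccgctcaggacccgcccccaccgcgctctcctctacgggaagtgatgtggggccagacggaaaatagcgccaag

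The Rab20 window held 1 match and the Rab32 window 2 matches to GAGGAAG on either strand, while the Rab31 and Rab27a windows had none. Neither did those not shown of Rab8b, of Rab7 (2 windows) and of the other Rab27a start, so 2 of these 8 windows held a match. That motif occurred in 13.3% of the 60 Rab windows and in 13.6% of 32851 windows of all genes, a like share. The ETS-type letters CCGGAAG, which share the core GGAAG with it, were found in 8.33% of the Rab windows and 8.86% of all. The GC box GGGCGG was present in 68.3% of the Rab windows against 35.7% of all, and the C/EBP-type letters TTNCNNAA in 28.3% against 40.7%. The CCAAT box was in 43.3% against 37.4%, the CRE letters TGACGTCA in 3.33% against 1.79%, the CLEAR-type E-box TCACGTGA in 5.0% against 0.974% and the NF-kB motif in 0 of the Rab windows against 0.411%. Each match describes letters in the window and no binding.

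Across classes the members differed widely in how general they were. Of the 59, 56 had a UMI in both libraries, Rab17 and Rab9b had none in either, and Rab40b had 0 UMIs in the library labelled Otud1-/- and 3 in WT. A level of at least 20 CPM in some class of at least 100 cells was reached by 38 members, and the other 21 stayed below it in every such class. CPM of 3′ tags is not scaled by gene length and serves here to compare a gene between classes, not one gene with another. Unless a smaller class or a cluster is named, levels and ranges below cover named classes of at least 100 cells in that library. The 76 plasma cells of the library labelled Otud1-/- are thus left out of its ranges. The general members included Rab2a, which acts between the endoplasmic reticulum and the Golgi, at 192 CPM in neutrophils and 119 to 217 CPM in the 5 other large classes of the library labelled Otud1-/-, and at 165 CPM in neutrophils and 103 to 226 CPM in the 9 others of WT. Rab14, of recycling endosomes and the Golgi, had 142 CPM in neutrophils and 122 to 156 CPM elsewhere in the library labelled Otud1-/-. Its WT levels were 129 CPM in neutrophils and 54.5 to 218 CPM elsewhere.

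**Figure D1:**
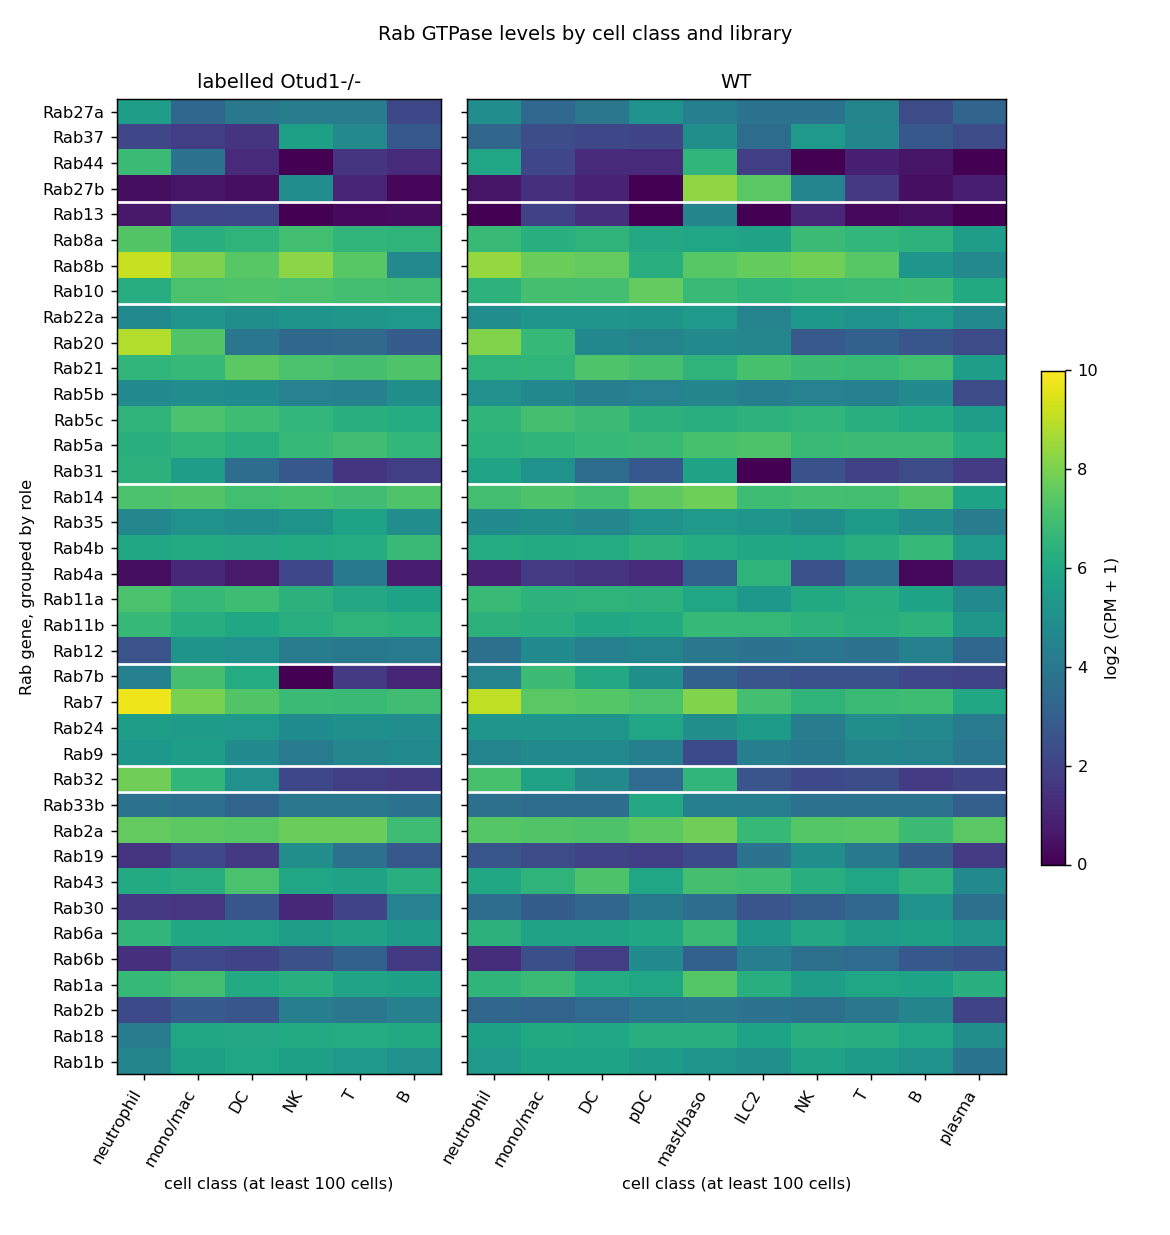
Level of the 38 Rab genes that reached 20 CPM in some class, as log2(CPM + 1), with genes in rows grouped by role and classes of at least 100 cells in columns, for the library labelled Otud1-/- (left) and WT (right). Most rows are even in colour across columns, while Rab7, Rab8b, Rab20, Rab32 and Rab44 are brightest or nearly so in neutrophils and Rab27b is bright only in WT mast cell/basophil and ILC2 columns and, less so, in NK cells.

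Summed over all 59 genes, the Rab level was 4062 CPM in neutrophils of the library labelled Otud1-/- and 3039 CPM in neutrophils of WT. In the same library monocyte/macrophage cells had 2774 CPM and B cells 1771 CPM, against 2432 and 1783 CPM in these classes of WT. Mast cell/basophil cells of WT, with 144 cells, had 3043 CPM, about the neutrophil sum, and plasma cells of WT had 1084 CPM. The neutrophil excess sat in 6 genes. Rab7, Rab8b, Rab20, Rab31, Rab32 and Rab44 together had 2331 CPM in neutrophils of the library labelled Otud1-/- and 1390 CPM in neutrophils of WT. In monocyte/macrophage cells these 6 had 818 CPM in the library labelled Otud1-/- and 583 CPM in WT. The remaining 53 genes came to 1731 CPM in neutrophils of the library labelled Otud1-/- and 1649 CPM in WT. That was within the 1612 to 1956 CPM of the B, T, NK, dendritic and monocyte/macrophage classes over both libraries. Outside that range, WT plasma cells had 988 CPM and WT mast cell/basophil cells 2332 CPM of these 53. As the 6 were picked by their neutrophil ratio, the split of the sum follows in part from the pick.

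Neutrophils were then set against the equal-weight mean of the other classes with at least 100 cells, 5 in the library labelled Otud1-/- and 9 in WT, with a difference counted from 2-fold upward. In the library labelled Otud1-/- 28 members were measured (a mean of at least 20 CPM and at least 50 UMIs), 7 of them higher and 2 lower in neutrophils. Of all 4793 genes measured there, 18.2% were higher and 39.3% lower. The median log2 ratio was 0.26 over the members and −0.60 over all genes. With TMM factors or the median of ratios in place of the total, 14 members were higher and 1 lower in that library. In WT 29 members were measured, 6 higher and 1 lower, where 10.9% of 5220 genes were higher and 9.31% lower. The WT median was 0.14 over the members and −0.31 over all genes. The 6 members higher in WT were all higher in the library labelled Otud1-/- as well, of 28 measured in both, and 0 were lower in both. These counts cover only the members that passed the minimum in the library at hand.

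Among the secretory granule Rabs, Rab44, a large Rab known for its part in mast cell degranulation, had 113 CPM (367 UMIs, 101 to 125) in neutrophils of the library labelled Otud1-/-, against 12.9 CPM in its monocyte/macrophage cells and 0 to 1.84 CPM in its B, T, NK and dendritic cells. In WT it had 57.4 CPM (117 UMIs, 47.5 to 68.8) in neutrophils, against 94.2 CPM (25 UMIs, 60.9 to 139) in mast cell/basophil cells and at most 3.33 CPM in the other 8 classes. Its log2 ratio was 4.83 in the library labelled Otud1-/- and 2.26 in WT, where the mast cell class entered the mean. Neutrophils and mast cell/basophil cells were thus the classes with a high level, and the monocyte/macrophage level was lower by far.

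Rab27a had 47.9 CPM (156 UMIs, 40.7 to 56.0) in neutrophils of the library labelled Otud1-/-, 18.02 in T, 17.3 in NK, 14.98 in dendritic, 9.49 in monocyte/macrophage and 3.46 CPM in B cells. Neutrophils stood above the next class there beyond counting error, although cluster 14 of its T cells, led by Trdc and Cd163l1 and with 99 cells, had 45.5 CPM (22 UMIs). As whole classes, T, NK and dendritic cells could not be ordered. In WT, plasmacytoid dendritic cells had 32.8 CPM (51 UMIs, 24.5 to 43.2) and neutrophils 29.0 CPM (59 UMIs, 22.0 to 37.4), and T cells followed with 22.6 CPM (19.0 to 26.8). These WT neighbours overlapped in their intervals, and monocyte/macrophage cells with 9.57, plasma cells with 8.69 and B cells with 4.07 CPM lay lowest. The log2 ratio of neutrophils to other classes was 1.88 in the library labelled Otud1-/- and 0.90 in WT, short of 2-fold. A Rab27a UMI was found in 14.3% of neutrophils of the library labelled Otud1-/- (median 2661 UMIs per cell) and in 4.98% of WT neutrophils (median 1593). Thinned to 1000 UMIs per cell, which left out 52 and 168 shallower cells, the shares were 3.52% (2.37 to 5.02) and 2.64% (1.64 to 4.01). B cells thinned in the same way had 0.361% and 0.421%.

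Rab27b, the close relative of Rab27a, was almost absent from neutrophils, with 1 UMI in each library. Its WT level was 320 CPM (85 UMIs) in mast cell/basophil cells, 171 CPM (65 UMIs) in ILC2 and 21.5 CPM in NK cells. The 21 mast cell/basophil and 32 ILC2 cells of the library labelled Otud1-/- had 560 CPM (50 UMIs) and 165 CPM (27 UMIs), and its NK cells 28.9 CPM. The WT log2 ratio of −5.87 in neutrophils rests on those mast cell/basophil and ILC2 levels. Rab37, known from secretory granules of mast cells, was highest, among classes of at least 100 cells, in NK cells with 49.7 CPM in the library labelled Otud1-/- and 40.7 CPM in WT, and T cells had 24.8 and 23.3 CPM. Mast cell/basophil cells had 44.8 CPM on 4 UMIs in the library labelled Otud1-/-, with 21 cells, and 30.1 CPM on 8 UMIs in WT, and neutrophils 3.38 and 8.84 CPM in the same order. Rab3d, a Rab of exocrine granules, stayed at or below 16.1 CPM in every class of at least 100 cells, with 6.75 CPM in neutrophils of the library labelled Otud1-/- and 7.85 CPM in WT. Rab26 and Rab3b had 0 UMIs in neutrophils of both libraries, and Rab3a and Rab3c had at most 2.

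Of the Rabs that deliver vesicles to the plasma membrane, Rab8b was the neutrophil-high one. It had 577 CPM (1880 UMIs) in neutrophils of the library labelled Otud1-/-, then 306 CPM in NK, 258 in monocyte/macrophage, 170 in dendritic and 167 CPM in T cells, and 25.1 CPM in B cells. The WT order was 346 CPM (704 UMIs) in neutrophils, 236 in NK, 215 in monocyte/macrophage and 198 in ILC2, with 37.6 in B and 25.3 CPM in plasma cells. B-lineage cells were the low end in both libraries, and the log2 ratios were 1.64 and 1.23. Its paralogue Rab8a was more even, with 159 CPM in neutrophils and 78.6 to 125 CPM elsewhere in the library labelled Otud1-/-, and 106 CPM in neutrophils and 47.4 to 112 CPM elsewhere in WT. Rab10, which carries membrane proteins to the surface, had 74.0 CPM in neutrophils of the library labelled Otud1-/-. That was its lowest level among classes of at least 100 cells there, against 123 to 151 CPM. The 76 plasma cells of that library were lower still, with 37.9 CPM (37 UMIs). In WT, neutrophils had 87.9 CPM of Rab10 and plasma cells 66.3 CPM. Rab13 had 22.6 CPM on 6 UMIs in WT mast cell/basophil cells, below 20 CPM in every other class of at least 100 cells, and 39.7 CPM (14 UMIs) in the 34 fibroblasts of the library labelled Otud1-/-.

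Of the early endosome and phagosome Rabs, Rab20 had the highest ratio of neutrophils to other classes. It had 463 CPM (1507 UMIs, 440 to 487) in neutrophils, 154 CPM in monocyte/macrophage cells and at most 14.3 CPM in dendritic, T, NK and B cells of the library labelled Otud1-/-. In WT it had 273 CPM (557 UMIs, 251 to 297) in neutrophils, 103 CPM in monocyte/macrophage cells and at most 26.4 CPM in the other 8 classes. Cluster 16 of the WT monocyte/macrophage class, led by Mmp13 and Mmp12 and with 166 cells, had 295 CPM (175 UMIs), beside 517 CPM in neutrophil cluster 5 and 220 CPM in neutrophil cluster 7 of WT. Its log2 ratio was 3.56 and 3.45. Rab31, which works between the trans-Golgi network and endosomes, had 85.3 CPM in neutrophils and 46.5 CPM in monocyte/macrophage cells of the library labelled Otud1-/-, against 56.4 and 34.1 CPM in the same classes of WT. WT mast cell/basophil cells had 52.7 CPM on 14 UMIs, not apart from WT neutrophils in counting error, and the log2 ratios were 2.61 and 2.08. The 3 Rab5 isoforms, the general regulators of early endosome fusion, and Rab21 and Rab22a did not differ 2-fold. Rab5c, for example, had 89.6 CPM in neutrophils and 71.5 to 142 CPM elsewhere in the library labelled Otud1-/-, and 91.8 CPM in neutrophils and 48.2 to 131 CPM elsewhere in WT.

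The late endosome and lysosome Rab, Rab7, had the most UMIs of all members in neutrophils, 2817 in the library labelled Otud1-/- and 1067 in WT. That was 865 CPM in neutrophils against 251 CPM in monocyte/macrophage cells and 108 to 156 CPM in the other classes of the library labelled Otud1-/-. In WT it was 524 CPM in neutrophils against 275 CPM in mast cell/basophil cells, 174 CPM in monocyte/macrophage cells and 60.8 to 163 CPM elsewhere. The log2 ratio was 2.53 and 1.90. Rab7b, a separate gene that acts between endosomes and the trans-Golgi network, was placed otherwise. It had 20.3 CPM in neutrophils against 130 CPM in monocyte/macrophage cells and 70.4 CPM in dendritic cells of the library labelled Otud1-/-, and 21.1 CPM in neutrophils against 114 and 64.0 CPM in the same classes of WT. Rab9, which returns receptors from late endosomes to the Golgi, and Rab24, tied to autophagy, did not differ 2-fold.

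Rab32, the Rab of lysosome-related organelles, had 228 CPM (744 UMIs) in neutrophils, 95.6 CPM in monocyte/macrophage and 32.2 CPM in dendritic cells of the library labelled Otud1-/-, with 2.22 to 3.47 CPM in lymphocytes. The WT values were 134 CPM (272 UMIs, 118 to 150) in neutrophils, 94.2 CPM (25 UMIs, 60.9 to 139) in mast cell/basophil cells, 53.9 CPM in monocyte/macrophage and 25.3 CPM in dendritic cells. Neutrophils and mast cell/basophil cells of WT were thus not apart in counting error. The 21 mast cell/basophil cells of the library labelled Otud1-/- had 157 CPM (14 UMIs, 85.7 to 263), which overlapped its neutrophils (212 to 245). The log2 ratios were 3.05 and 2.54. Its relatives Rab38 and Rab29 had at most 9 UMIs in neutrophils of either library.

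**Figure D2:**
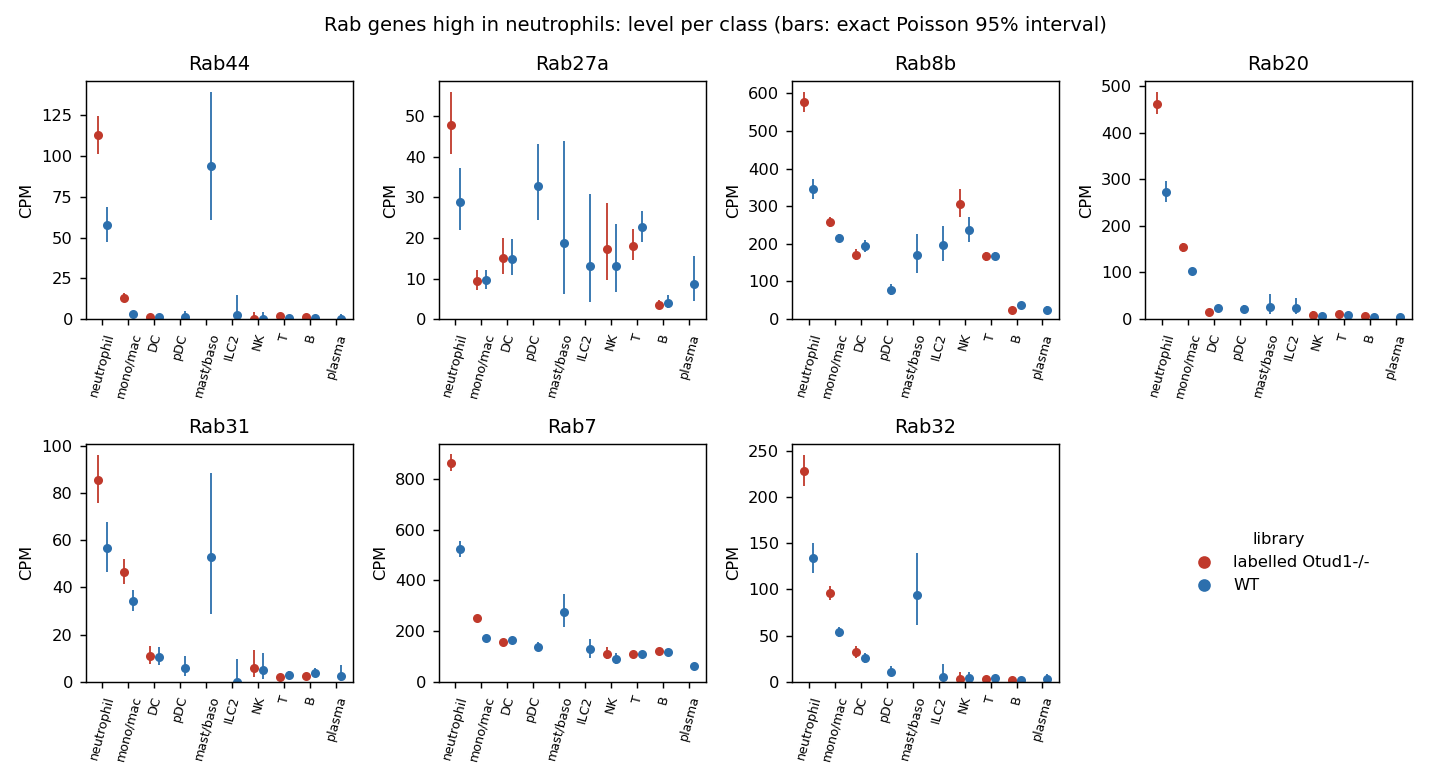
Level in CPM (y axis, starting at 0) of 7 Rab genes in each class of at least 100 cells (x axis), for the library labelled Otud1-/- (red) and WT (blue), with exact 95% Poisson intervals as bars. Neutrophils are the highest class of their library except for Rab44 in WT, where mast cell/basophil cells are at 94.2 CPM, and Rab27a in WT, where plasmacytoid dendritic cells are at 32.8 CPM. For Rab31 and Rab32 in WT the mast cell/basophil interval overlaps that of neutrophils.

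The endoplasmic reticulum and Golgi Rabs held no member 2-fold higher in neutrophils of either library. In the library labelled Otud1-/- they held both of the lower members, while in WT none of them was lower and the 1 lower member was Rab27b. Rab18, of the endoplasmic reticulum and lipid droplets, had 18.1 CPM (59 UMIs) in neutrophils of the library labelled Otud1-/-. It had 63.4 to 71.2 CPM in the 5 other classes of at least 100 cells there, a log2 ratio of −1.86. In WT it had 50.1 CPM (102 UMIs) in neutrophils and 30.01 to 80.1 CPM elsewhere, a log2 ratio of −0.34. Rab1b, needed for transport from the endoplasmic reticulum to the Golgi, had 22.4 CPM in neutrophils of the library labelled Otud1-/-. The 5 other classes of at least 100 cells had 32.0 to 58.6 CPM there (log2 ratio −1.03). In WT, Rab1b had 40.2 CPM in neutrophils and 13.4 to 55.4 CPM elsewhere (log2 ratio −0.01). Plasma cells of the library labelled Otud1-/-, with 76 cells, were not in these ranges. They had 17.4 CPM of Rab18 (17 UMIs) and 21.5 CPM of Rab1b (21 UMIs), near the neutrophil levels. Rab1a, the paralogue of Rab1b, was not lower in the library labelled Otud1-/-. It had 103 CPM in neutrophils and 51.5 to 126 CPM in the other classes of at least 100 cells there. Markers of B and T cells were higher in WT neutrophils, as given below, and their part in these WT levels was not tested.

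Several members had their highest level in another lineage. Rab43, a Golgi Rab that dendritic cells use in cross-presentation, had 140 CPM in dendritic cells against 67.8 CPM in neutrophils of the library labelled Otud1-/-, and 146 against 61.4 CPM in WT. Rab33b, of the Golgi and autophagosomes, had 65.0 CPM (101 UMIs) in WT plasmacytoid dendritic cells and at most 18.8 CPM in the other WT classes. The 68 plasmacytoid dendritic cells of the library labelled Otud1-/- had 67.6 CPM (43 UMIs). Rab4a, of fast recycling, had 89.6 CPM (34 UMIs) in WT ILC2 and at most 12.4 CPM in the other WT classes. In the library labelled Otud1-/- it had 67.4 CPM (11 UMIs, 33.6 to 121) in the 32 ILC2 cells and 15.4 CPM in T cells. Cluster 14 of the T cells had 43.4 CPM (21 UMIs) of Rab4a in the library labelled Otud1-/- and 37.8 CPM (26 UMIs) in WT. The unnamed cluster 26, led by Gzmc and Xcl1, had 79.7 CPM (11 UMIs) in WT. Rab19 was highest in NK cells, with 30.1 CPM in the library labelled Otud1-/- and 29.9 CPM in WT. Rab30, a Golgi Rab, was highest in B cells with 20.5 CPM in the library labelled Otud1-/- and 34.7 CPM in WT. An unnamed cluster led by Cfb and Gbp2, with 106 cells in the library labelled Otud1-/- and 13 in WT, had 257 CPM of Rab5c in the library labelled Otud1-/-. Dendritic cells led by Apol7c, Fscn1 and Ccl22, 133 cells in WT, had 370 CPM of Rab21.

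**Figure D3:**
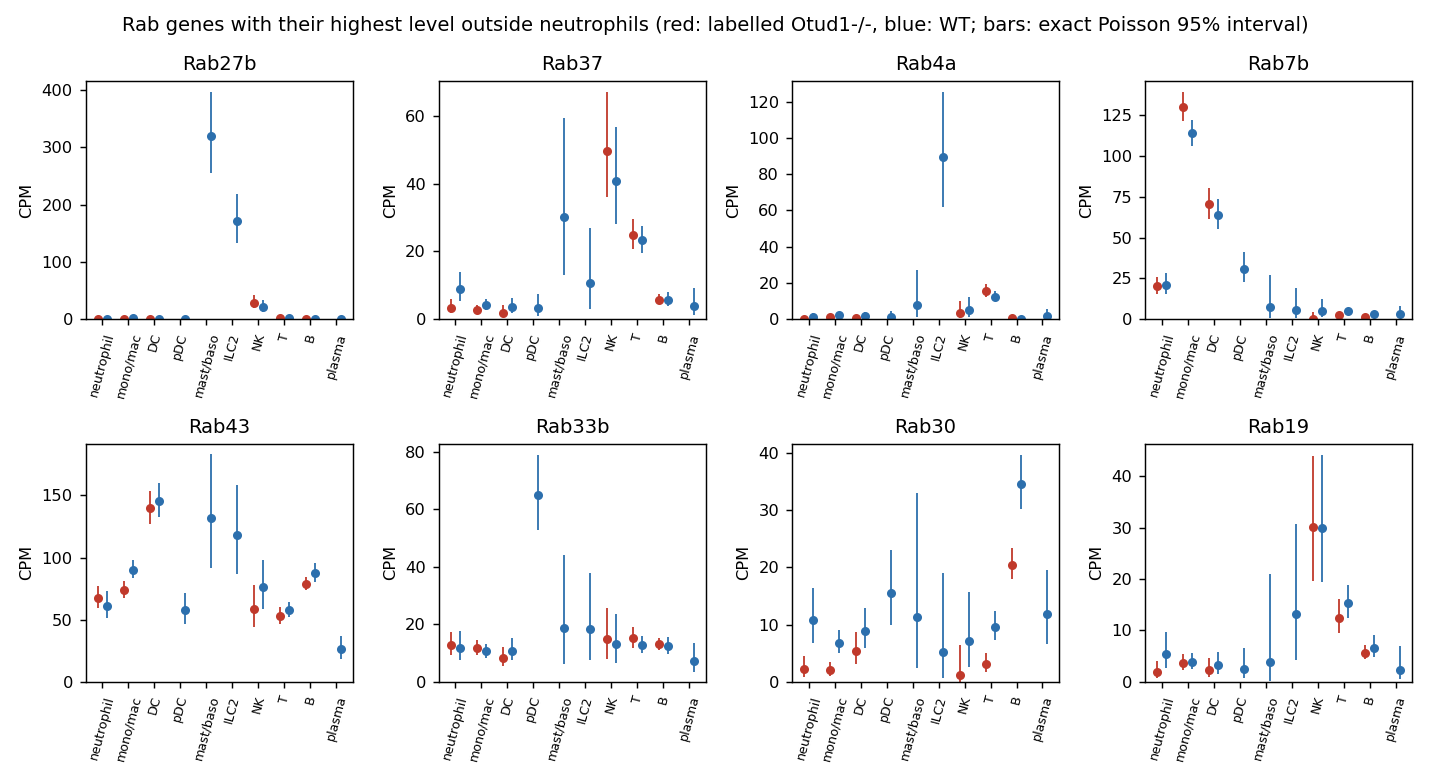
Level in CPM (y axis, starting at 0) of 8 Rab genes with their highest level outside neutrophils, per class of at least 100 cells (x axis), for the library labelled Otud1-/- (red) and WT (blue), with exact 95% Poisson intervals as bars. Rab27b stands at 320 CPM in WT mast cell/basophil cells, Rab7b at 130 and 114 CPM in monocyte/macrophage cells and Rab43 at 140 and 146 CPM in dendritic cells.

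The title of the series concerns neutrophils, so the members were next compared between the libraries within neutrophils, with a difference counted from 1.5-fold upward. Of 59 members, 28 were measured and 31 lay below the minimum, 7 of these with 0 UMIs in neutrophils of both libraries. In the library labelled Otud1-/- 9 members were higher and 2 lower, where 16.8% of all 4291 genes measured were higher and 32.6% lower. The median log2 ratio was 0.16 over the members and −0.19 over all genes. Scaling by TMM factors in place of the total moved every neutrophil ratio up by 0.57 on the log2 scale, so ratios between −0.57 and 0 change sign with the scaling, and 18 members were then higher and 1 lower. Scaling by the median of ratios, which sets the median of all genes to no change, gave 9 higher and 2 lower.

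Before the genes, the make-up of the neutrophil class is needed. Cluster 5, a neutrophil cluster led by Stfa2l1, Cstdc4 and Cxcr2, made up 88.7% of neutrophils in the library labelled Otud1-/- and 18.1% in WT. Cluster 7, led by G0s2, Mmp9 and Il1f9, made up 9.25% and 69.9% in the same order, and cluster 23, with the secondary granule genes Ngp, Camp and Ltf, 2.05% and 12.0%. Ribosomal protein genes took 5.19% of neutrophil UMIs in the library labelled Otud1-/- and 15.03% in WT. The summed level of 12 B markers in neutrophils was 555 CPM in the library labelled Otud1-/- against 4190 CPM in its other cells, and 2168 against 3607 CPM in WT. The 17 T markers summed to 62.0 against 979 CPM in the library labelled Otud1-/-, with 1 marker at 0, and to 592 against 1351 CPM in WT, with none at 0. Over both lists the median level relative to other cells was 8.21% in the library labelled Otud1-/- and 54.8% in WT. These values move with every neutrophil ratio below. Under a setting that subtracted RNA of other classes in proportion to those shares, 2 members were higher, Rab9 (log2 ratio 1.22) and Rab43 (0.73), of 27 measured, and Rab27a was at 0.096. Rab18 (−1.34), Rab1b (−0.77) and Rab5b (−0.76) were then lower by more than 1.5-fold.

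Both measured granule Rabs were among the 9 higher members. Rab44 was at 113 CPM in the library labelled Otud1-/- and 57.4 CPM in WT, a log2 ratio of 0.97 (0.67 to 1.28). Rab27a was at 47.9 CPM and 29.0 CPM in the same order, 0.72 (0.28 to 1.18). Of the plasma membrane Rabs, Rab8b (577 against 346 CPM, 0.74) and Rab8a (159 against 106 CPM, 0.59) were higher, and Rab10 was at 74.0 against 87.9 CPM, −0.25. Of the early endosome Rabs, Rab20 (463 against 273 CPM, 0.76) and Rab31 (85.3 against 56.4 CPM, 0.59) were higher. The other 5 measured there had log2 ratios of −0.26 for Rab5b, −0.11 for Rab22a, −0.10 for Rab5a, −0.03 for Rab5c and 0.08 for Rab21.

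Recycling endosome Rabs held no difference of 1.5-fold. Rab11a, the main Rab of slow recycling, was at 138 CPM in the library labelled Otud1-/- and 107 CPM in WT (log2 ratio 0.37), and Rab11b followed at 0.26, Rab14 at 0.13, Rab35 at −0.21 and Rab4b at −0.22. Of the late endosome and lysosome Rabs, Rab7 (865 against 524 CPM, 0.72) and Rab9 (39.3 against 21.6 CPM, 0.85) were higher, while Rab24 was at 0.37 and Rab7b at −0.06. Rab32 was higher, 228 CPM in the library labelled Otud1-/- against 134 CPM in WT, 0.77. The endoplasmic reticulum and Golgi Rabs again held both of the lower members. Rab18 was at 18.1 CPM in the library labelled Otud1-/- and 50.1 CPM in WT, −1.44 (−1.95 to −0.99), and Rab1b at 22.4 and 40.2 CPM, −0.83 (−1.32 to −0.37). The rest of that group had log2 ratios of 0.14 for Rab43, 0.15 for Rab1a, 0.17 for Rab6a and 0.21 for Rab2a.

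**Figure D4:**
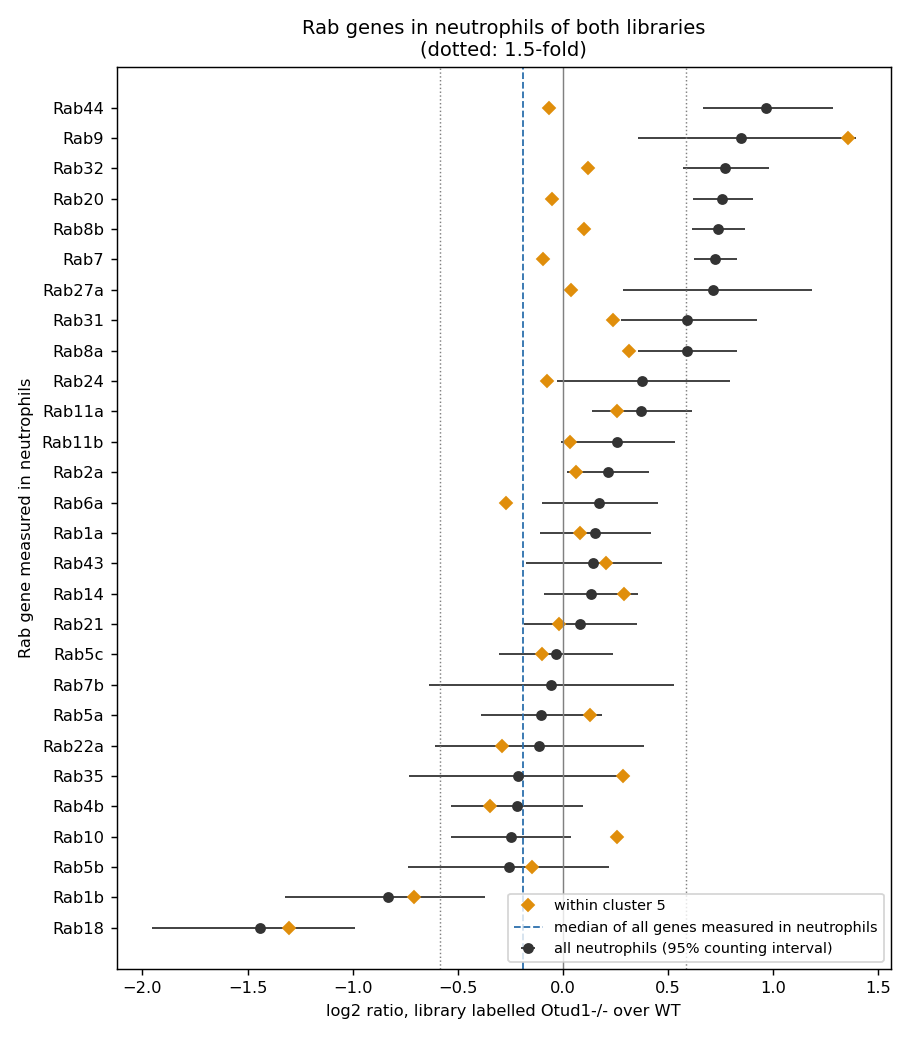
Log2 ratio between libraries, with the one labelled Otud1-/- on top of WT (x axis), for the 28 Rab genes measured in neutrophils (y axis), over all neutrophils (black, with exact 95% counting intervals) and within neutrophil cluster 5 (orange), with dotted lines at 1.5-fold and a dashed line at the median of all genes, −0.19. Most genes at the top of the plot lie near 0 within cluster 5, Rab44 moving to −0.07 against 0.97, while Rab9 (1.35), Rab1b (−0.71) and Rab18 (−1.30) keep their side.

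Within cluster 5, which held 777 cells of the library labelled Otud1-/- and 174 of WT, 27 members were measured, 1 higher and 2 lower. Of all genes measured in that cluster 7.03% were higher and 12.9% lower, and the medians were 0.04 over the members and −0.03 over all genes. The summed Rab level was 4234 CPM in the library labelled Otud1-/- and 4184 CPM in WT. The 6 genes high in neutrophils of both libraries had log2 ratios of −0.10 to 0.24 there. Rab7, for one, was at 927 CPM in the library labelled Otud1-/- and 990 CPM in WT, and Rab44 at 118 and 124 CPM. Rab27a was at 49.1 CPM (142 UMIs) and 47.8 CPM (27 UMIs), 0.04 (−0.56 to 0.69). The B markers in cluster 5 summed to 414 CPM in the library labelled Otud1-/- and 604 CPM in WT. The T markers summed to 61.9 CPM (1 of 17 at 0) and 243 CPM (3 at 0) in the same order. Their part in the ratios within cluster 5 was not tested.

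The 3 genes past 1.5-fold within cluster 5 were also past it over all neutrophils. Rab18 was at 17.0 CPM (49 UMIs) in the library labelled Otud1-/- and 42.5 CPM (24 UMIs) in WT within cluster 5, −1.30 (−2.06 to −0.56). Rab1b was at 20.4 CPM (59 UMIs) and 33.7 CPM (19 UMIs), −0.71 (−1.49 to 0.11). Rab9 was at 41.5 CPM (120 UMIs) and 15.9 CPM (9 UMIs), 1.35 (0.41 to 2.54). The WT side of these 3 rests on few UMIs. Among neutrophils with a Y-linked but no Xist UMI, Rab9 was at 0.44 and Rab27a at −0.017. Rab9 lies on chromosome X, and the cause of its smaller ratio in these cells was not tested. In cluster 7, with 81 cells of the library labelled Otud1-/- and 673 of WT, 21 members were measured, 3 higher (Rab43 0.97, Rab44 0.95, Rab32 0.64) and 4 lower. Of all genes in cluster 7, 12.7% were higher and 16.4% lower, and the Rab sums were 2606 and 2701 CPM. The 4 lower ones, Rab18 (−1.75), Rab6a (−1.20), Rab11a (−0.91) and Rab31 (−0.65), had 2 to 8 UMIs each in the library labelled Otud1-/-. Rab7 in cluster 7 was at 423 CPM in the library labelled Otud1-/- and 399 CPM in WT, lower than in cluster 5 of either library. The B markers in cluster 7 summed to 3952 CPM in the library labelled Otud1-/- and 3148 CPM in WT, near the 4190 and 3607 CPM of the other cells, and the T markers to 155 CPM (8 of 17 at 0) and 664 CPM (none at 0). Their part in the cluster 7 values was not tested.

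In the other 5 classes with 100 cells in both libraries, few members differed 1.5-fold. The libraries also filled some of these classes differently: cluster 6, led by C1qa, held 69 monocyte/macrophage cells of the library labelled Otud1-/- and 869 of WT, and cluster 2, led by Ace and Vcan, 285 and 823 in the same order. T cells were 475 and 634 in cluster 1, led by Dapl1 and Lef1, and 228 and 841 in cluster 3, led by Tnfrsf4 and Ctla4. The part of this make-up in the ratios was not tested. B cells had 0 higher and 1 lower of 24 measured (0.701% and 1.81% of all genes), with a median log2 ratio of 0.01. The lower one was Rab30, 20.5 CPM in the library labelled Otud1-/- and 34.7 CPM in WT, −0.74 (−1.03 to −0.48). Rab8b (−0.57) and Rab5a (−0.22) were next lowest, and Rab9 (0.27), Rab21 (0.27) and Rab18 (0.21) highest. T cells had 0 of 24 in either direction (0.702% and 3.74% of all genes), between Rab27a at −0.32 (18.02 CPM in the library labelled Otud1-/- and 22.6 CPM in WT), Rab11a at −0.22 and Rab43 at −0.13, and Rab21 at 0.29, Rab2a at 0.33 and Rab35 at 0.37. NK cells had 1 higher of 21, Rab1a at 77.5 CPM in the library labelled Otud1-/- and 47.8 CPM in WT (0.69, 0.11 to 1.30), and 0 lower (6.36% and 9.11% of all genes). Rab10 (0.45) and Rab2a (0.41) came next, and Rab6a (−0.48), Rab43 (−0.37) and Rab11b (−0.23) were lowest.

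Dendritic cells had 2 higher of 25 (2.22% of all genes) and 0 lower (7.27%). Rab12, of recycling endosomes, was at 32.2 CPM in the library labelled Otud1-/- and 19.8 CPM in WT (0.68, 0.23 to 1.18), and Rab5b at 28.0 and 18.2 CPM (0.61, 0.12 to 1.13). Rab11a followed at 0.40, and Rab5a (−0.45), Rab22a (−0.22) and Rab8b (−0.19) were lowest. Monocyte/macrophage cells had 2 higher of 27 (5.01% of all genes) and 0 lower (3.23%), with a median of 0.17 beside 0.02 over all genes. Rab9 was at 47.6 CPM (306 UMIs) in the library labelled Otud1-/- and 26.2 CPM (181 UMIs) in WT, 0.85 (0.59 to 1.13). Rab32 was at 95.6 and 53.9 CPM, 0.82 (0.64 to 1.02), and Rab20 at 154 and 103 CPM, 0.58. Rab43 (−0.29), Rab1b (−0.12) and Rab18 (−0.06) were lowest. Rab44, below the minimum in this class, had 12.9 CPM (83 UMIs) in the library labelled Otud1-/- and 3.33 CPM (23 UMIs) in WT. Rab18 thus had log2 ratios of −0.23 to 0.21 in these 5 classes, beside −1.44 in neutrophils, and Rab9 was counted as higher in neutrophils and monocyte/macrophage cells.

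The genes of proteins that control Rabs were read from lists of their own in neutrophils, beside the 16.8% higher, the 32.6% lower and the median of −0.19 over all genes. Of 8 genes for Rab prenylation and GDI, 4 were measured, 0 higher and 1 lower, with a median of 0.40. The lower one was Gdi2, which extracts inactive Rabs from membranes, at 137 CPM in the library labelled Otud1-/- and 325 CPM in WT, −1.25 (−1.43 to −1.07). Within cluster 5 and cluster 7 Gdi2 did not differ 1.5-fold, with log2 ratios of −0.07 and 0.18 in that order. In cluster 7 it was at 444 CPM in the library labelled Otud1-/- and 390 CPM in WT. The part of the cluster make-up in the Gdi2 ratio over all neutrophils was not tested. Chm (Rab escort protein) was at 0.33 and Rabac1 at 0.47. Of 35 exchange factors 14 were measured, 1 higher and 3 lower, with a median of 0.28. Rabgef1, which activates Rab5, was at 289 CPM in the library labelled Otud1-/- and 174 CPM in WT (0.73), followed by Rin3 (0.58), and Dennd5b (−1.28) and Ccz1 (−0.85) were lowest. Of 40 genes listed as GAPs 13 were measured, 1 higher and 4 lower, with a median of −0.04. A place on this list does not mean that GAP activity is known for each product. Tbc1d23 (0.94) and Tbc1d2b (0.44) were highest, and Rabgap1l (−1.85) and Rab3gap1 (−1.65) lowest. Within cluster 5 and cluster 7, in that order, Tbc1d23 was at 0.63 and 0.90 and Tbc1d2b at −0.20 and 0.89. Rabgap1l was at −0.29 and 0.14, and Rab3gap1 at −0.23 and −0.26. Rabgap1l and Rab3gap1 lay below the minimum in cluster 5, and Tbc1d2b in cluster 7.

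Of 36 other Rab effectors 10 were measured, 5 higher and 1 lower, with a median of 0.70. Over all genes measured in neutrophils 16.8% were higher and 32.6% lower, with a median of −0.19. Zfyve26 was at 85.3 CPM in the library labelled Otud1-/- and 31.9 CPM in WT (1.41), and Eea1, the tether of Rab5-positive early endosomes, at 208 and 92.8 CPM (1.16). Plekhm1, which links Rab7 to lysosomes, was lowest (−0.73), before Lrrk2, a kinase of Rabs (−0.51). Within cluster 5 the medians were 0.22 for prenylation and GDI, −0.00057 for exchange factors, −0.14 for GAPs and 0.16 for the other effectors. None of 11 Rab27 effectors reached the minimum between the libraries in neutrophils. Unc13d (Munc13-4), the tether that acts with RAB27A in granule release, had 13.5 CPM (44 UMIs) in the library labelled Otud1-/- and 15.7 CPM (32 UMIs) in WT. Against other classes, Sytl3 was the 1 effector measured, and it was lower in neutrophils, with 5.53 CPM in the library labelled Otud1-/- and 9.82 CPM in WT and log2 ratios of −3.64 and −2.83. Higher in neutrophils than in other classes in both libraries were Rab11fip1, a Rab11 effector (2.82 in the library labelled Otud1-/- and 2.71 in WT), Rabgef1 (2.86 and 1.26) and Tbc1d14 of the GAP list (1.70 and 1.18).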

How the data were processed

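Per the labels, cells were partitioned and tagged with 10x Genomics 3′ chemistry. The authors deposited unnormalised UMI counts for each gene in each barcode. The submitters' processing notes list Seurat 3.2.3, Cell Ranger 5.0.0 and mm10, while the file headers name Cell Ranger 6.0.1. The members, gene lists, class naming rule and thresholds were chosen with earlier results of these data known.

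Barcodes below 200 genes or above 15% mitochondrial UMIs were dropped (1173 in the library labelled Otud1-/- and 498 in WT). Doublets were scored against 2 simulated doublets per cell, and the highest scores, 0.8% per 1000 barcodes, were removed (450 and 1355 cells, same order). Cells of both libraries entered 1 clustering, not integrated, on 2000 variable genes that held no Rab or Rab regulator gene, 30 principal components and 20 neighbours with the Leiden method at resolution 1 (leidenalg 0.10.2, Python 3.11.15). Naming went by markers among a cluster's top 50 genes (at least 3, and most of any set). This gave 12 classes from 22 marker sets and left 515 cells of the library labelled Otud1-/- and 1443 WT cells unnamed.

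UMIs were summed per class and library and scaled to CPM, with exact Poisson intervals for levels and exact conditional binomial intervals for ratios. Ratios used a prior of 0.5 CPM and were read where the mean was at least 20 CPM on at least 50 UMIs, and counted from 2-fold between classes and 1.5-fold between libraries. The self-test on simulated counts returned the folds put in. TMM factors came from edgeR 4.0.16. Named genes were all measured members in neutrophils, the 3 highest and 3 lowest in other classes, and the 2 highest and 2 lowest of each regulator list, of which 1 is not reported here. Clusters and members singled out as highest in another lineage were chosen after their values were seen. Protein sequences were not used here.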

Additional observations from a re-analysis of the deposited data

How the results depend on the processing

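No paired analysis was possible because each genotype has 1 library. Each count and median was recomputed under those of 20 settings that applied to it, and the 6 genes higher in neutrophils of both libraries stayed above 2-fold under all of them except Rab8b, at 0.53 in the library labelled Otud1-/- and 0.92 in WT with cluster 7 alone. These settings did not take cluster 23 alone, and its levels are given under the other observations. The cause of each change below was not tested. Resolution 0.5 formed no dendritic class.

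Between libraries in neutrophils, the 9 higher members became 18 with TMM factors, 3 in cells that had a Y-linked but no Xist UMI, 2 with RNA of other classes taken out, 1 in cluster 5, 3 in cluster 7 and 0 at 2-fold. The 2 lower became 1 with TMM, without doublet removal or at 2-fold, 0 at 40 CPM and 4 in cluster 7. The median of 0.16 became 0.73 with TMM. Of the members past 1.5-fold over all neutrophils or under the setting (smaller turns are not listed), signs turned for Rab27a (−0.017) and Rab24 (−0.69) in the Y-linked cells. They turned for Rab7 (−0.10), Rab20 (−0.18), Rab32 (−0.14), Rab44 (−0.022) and Rab31 (−0.27) with RNA of other classes taken out. They turned for Rab7 (−0.10), Rab20 (−0.050) and Rab44 (−0.067) in cluster 5, and for Rab6a (−1.20), Rab20 (−0.51), Rab8a (−0.076), Rab11a (−0.91), Rab8b (−0.053) and Rab31 (−0.65) in cluster 7. Rab18 kept 1.5-fold under every setting that gave a value (−1.75 to −0.88). Rab9 was past it except in the Y-linked cells (0.44), at 2-fold, and at 40 CPM and in cluster 7 (0.29), where it lay below the minimum.

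For neutrophils against other classes in the library labelled Otud1-/-, the 7 higher became 14 with TMM or median of ratios. The 2 lower became 1 under these, at 40 CPM, at 5% mitochondrial UMIs, at resolution 0.5, in the Y-linked cells, with a prior of 5 CPM or with all other cells summed, and 4 at 10 CPM, 14 with no minimum and 5 at 1.5-fold. The median of 0.26 became 1.05 with TMM, 0.86 with median of ratios, 0.058 at 10 CPM, 0.44 at 40 CPM, −0.25 with no minimum and −0.045 in cluster 7. In WT the 6 higher became 10 with RNA of other classes taken out. The 1 lower became 0 at 40 CPM, with all other cells summed or with only the 5 other classes large in both libraries (a setting added after seeing the data), 4 with no minimum and 3 with that RNA taken out. The median of 0.14 became 0.46 with median of ratios and −0.082 with no minimum.

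In other classes, the 1 lower in B cells became 0 at 40 CPM and 2 with no minimum, at 5% mitochondrial UMIs, without doublet removal or at resolution 2. Dendritic cells went to 0 higher at 40 CPM or a prior of 5 CPM and 1 without doublet removal or in the Y-linked cells, and to 1 lower at 10 CPM, with no minimum or without doublet removal. Monocyte/macrophage cells went to 1 higher at 40 CPM, at resolution 2 or in the Y-linked cells, and to 4 higher and 2 lower with no minimum. T cells had 1 lower with no minimum, and NK cells 0 higher in the Y-linked cells. With TMM the list medians became 0.97 for prenylation and GDI, 0.90 for exchange factors, 0.51 for GAPs and 1.26 for other effectors. Thinning took the share of neutrophils with a Rab27a UMI to 3.52% and 2.64%, the library labelled Otud1-/- first.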

Other observations

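The small neutrophil cluster with secondary granule genes (18 cells in the library labelled Otud1-/- and 116 in WT), whose leading genes Ngp, Camp and Ltf are made in immature neutrophils, is set here beside the 2 larger ones. Its Rab sum was 2766 CPM in the library labelled Otud1-/- and 2259 CPM in WT, against 4234 and 4184 CPM in cluster 5 and 2606 and 2701 CPM in cluster 7. Rab7 was at 350 CPM (79 UMIs) in the library labelled Otud1-/- and 163 CPM (55 UMIs) in WT, and Rab44 at 66.5 CPM (15 UMIs) and 17.7 CPM (6 UMIs) in the same order. Rab20 was at 182 (41 UMIs) and 44.4 CPM (15 UMIs), and Rab8b at 293 (66 UMIs) and 192 CPM (65 UMIs). Rab32 had 84.2 (19 UMIs) and 68.0 CPM (23 UMIs), and Rab31 57.6 (13 UMIs) and 26.6 CPM (9 UMIs). In WT, Rab7, Rab8b, Rab20 and Rab31 lay below the monocyte/macrophage levels given above, and Rab32 and Rab44 above them. In the library labelled Otud1-/- only Rab32 lay below. Several of these levels rest on few UMIs. In cluster 7 Rab7 was at 423 and 399 CPM and Rab44 at 70.4 and 36.1 CPM, again with the library labelled Otud1-/- first. Rab7b was among the members higher in the small cluster than in cluster 5 of both libraries, as were Rab10, Rab18, Rab1b, Rab28 and Rab3d. It was at 57.6 CPM (13 UMIs) in the library labelled Otud1-/- and 71.0 CPM (24 UMIs) in WT, beside 18.3 and 8.86 CPM in cluster 5. Monocyte/macrophage markers in the small cluster summed to 3453 CPM in the library labelled Otud1-/- and 3182 CPM in WT, and their part in the Rab7b level was not tested.

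No single cell carried the neutrophil levels. The highest cell held 4 of 156 Rab27a UMIs in the library labelled Otud1-/- and 3 of 59 in WT, and 5 of 367 and 4 of 117 Rab44 UMIs in the same order. Rab6b, a Golgi Rab best known from neurons, was highest in plasmacytoid dendritic cells of both libraries, at 36.2 CPM (23 UMIs) in the library labelled Otud1-/- and 27.7 CPM (43 UMIs) in WT. Rab27b was among the 10 leading genes of the ILC2 cluster, although no Rab gene was used to form clusters.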
